A study of Mus musculus with 12 samples.

Results

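Igf1, the genes of its receptor, of the related insulin receptor and of their substrates, and 5 genes of its binding proteins were examined in mammary tumors of mice fed an agonist of the retinoid X receptors (RXRs). The 10 genes were chosen by name: Igf1, Igf1r, Insr, Irs1, Irs2, Igfbp2, Igfbp3, Igfbp4, Igfbp5 and Igfbp6. All 10 were among the 54532 genes of the deposited tables, and all 10 were among the 15504 genes with enough reads to be tested. Female MMTV-Neu mice, in which the Neu oncogene is driven by a mammary tumor virus promoter, were randomized to diets once a tumor measured 4 mm across. Control mice were fed the diet with no agonist, and the other groups were fed MSU-42011 or bexarotene at 100 mg per kg of diet, for 10 days in every group. All mice carried the transgene, so no group was free of tumor, and the age at harvest was not given in the sources used here. RNA of 4 tumors per group was sequenced, 12 tumors in all.

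IGF-1 is a secreted growth factor that binds the IGF-1 receptor on the cell surface, and insulin receptor substrates carry the signal on to PI3K and AKT. In the extracellular fluid most of the factor is held by IGF-binding proteins, which prolong its life and limit or present it to the receptor. In the mammary gland, Igf1 mRNA is known chiefly from stromal cells, while the receptor is found on the epithelium, where it supports duct growth and survival. RXRs are nuclear receptors that bind DNA as partners of other nuclear receptors, at repeats of the hexamer AGGTCA.

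Promoter sequence from RefSeq (GRCm38.p6) was matched for 9 of the genes, with 10 promoters in all, since Igfbp2 had a pair of start sites. No promoter was matched for Insr. In the 250 bases before each start site, AGGTCA was found on either strand in 2 of the 10 promoters, those of Igf1 and Igf1r, against 14.0% of 32851 promoters of all genes. The 60 bases around each match are shown because they hold the only copies of this hexamer in the promoters searched, with the hexamer in capitals, 5′ to 3′ on the plus strand. The stretch of Igf1 is chr10:87860923-87860982, and the first base of its hexamer was 161 bases before the start site. The stretch of Igf1r is chr7:67952144-67952203, with the hexamer on the minus strand and the first of the capitals 86 bases before the start site.
Igf1: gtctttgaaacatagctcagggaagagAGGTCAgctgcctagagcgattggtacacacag
Igf1r: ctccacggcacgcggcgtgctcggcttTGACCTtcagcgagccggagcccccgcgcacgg
The direct repeats AGGTCANAGGTCA, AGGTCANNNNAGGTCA and AGGTCANNNNNAGGTCA, searched on both strands, were in 0 of the 10 promoters and in 0.0335%, 0.0152% and 0.00913% of all promoters. Each repeat contains the single hexamer, so these counts overlap with the first. A match is a run of letters and was not measured as a binding site. The start site used for Igf1 lay 2846 bases inside the listed gene, so other promoters of Igf1 were not searched.

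The genes lie on 6 chromosomes. Igf1 is at chr10:87858265-87937042 on the plus strand, Igf1r at chr7:67952827-68233668 on the plus strand and Insr at chr8:3122061-3279617 on the minus strand. Irs1 is at chr1:82233101-82291416 and Irs2 at chr8:10984681-11008458, both on the minus strand. Igfbp2, at chr1:72824503-72852474 on the plus strand, and Igfbp5, at chr1:72857932-72874884 on the minus strand, are neighbours 5457 bases apart that point toward each other. Igfbp3 is at chr11:7206086-7213923 on the minus strand, Igfbp4 at chr11:99041244-99054392 on the plus strand and Igfbp6 at chr15:102144362-102149511 on the plus strand. These coordinates are the tables' own, and they were the same as those of the GRCm38 annotation for all 10 genes. Listed genes that overlap these spans took few reads: the antisense Igf1os had 7 counts over all tumors, and the most was 239 counts, for 9530052E02Rik, which overlaps Irs2.

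Total counts per tumor ranged from 16583413 to 25925027, with a median of 19342536. The adhesion gene Epcam, a marker of the tumor epithelium, had a mean of 2310 ± 224 (SD, n = 4) CPM (counts scaled to the normalized library size) in control tumors. It was the most abundant of the epithelial markers listed, whose control means ran down to 0.89 CPM, for Krt19. The library of bexarotene replicate 1 stood apart, with a median correlation of 0.915 to the other libraries where the remaining 11 had 0.961 or more, and it lay at -115 on the first principal component, where the others lay between -16.2 and 34.2. The summed CPM of 15 fibroblast markers was 12879 in this tumor, 116 to 539 in control tumors, 204 to 572 in MSU-42011 tumors and 181 to 1060 in the other bexarotene tumors. Fold changes that this library moved by more than 1.5 times, or turned in sign, are given with and without it. No batch was given in the sources used here.

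No gene of the set passed the test in any comparison. The edgeR quasi-likelihood test with Benjamini-Hochberg adjustment over all genes called 0 of the 15504 genes (0%) at an adjusted p under 0.05 in each comparison, also without bexarotene replicate 1. At an unadjusted p under 0.05 it called 309 genes between MSU-42011 and control, 998 between bexarotene and control and 612 between the agonists. DESeq2 called 1, 6 and 25 genes at an adjusted p under 0.05, none of them in the set. The adjusted p of the 10 genes was 1 throughout between MSU-42011 and control, 0.762 to 0.983 between bexarotene and control, and 0.997 throughout between the agonists. Differences below are therefore given as values with their errors, and none of them was past the threshold. Because the tumors were sequenced in bulk, fewer cells of a type and less RNA per cell cannot be told apart.

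The order of the levels was compared per length, in FPKM (fragments scaled to gene length and library total), as the median over the 12 tumors. Igfbp5 was highest at 831 FPKM and ranked 121 among the 54532 genes of the table, followed by Igfbp3 at 108, Igfbp4 at 29.6, Irs2 at 23.2, Insr at 18.2, Igf1r at 6.91, Irs1 at 4.56, Igf1 at 3.63, Igfbp2 at 2.67 and Igfbp6 at 0.299 FPKM. Of the neighbours in this order, only Igfbp5 against Igfbp3 and Insr against Igf1r had ranges that did not overlap across the tumors. The authors' FPKM used a length below the listed gene length for 7 of the 10 genes, such as 1963 against 9904 bases for Igf1 and 3254 against 13746 bases for Insr. With the listed lengths Igf1 came to 0.719 FPKM, Insr to 4.30 and Igf1r to 1.38, and Irs2 then stood above Igfbp4, Irs1 above Insr, and Igfbp2 above both Igf1r and Igf1, so the order from the third to the ninth place depends on the length taken. Igfbp5 and Igfbp3 at the top and Igfbp6 at the bottom kept their places.

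**Figure D1:**
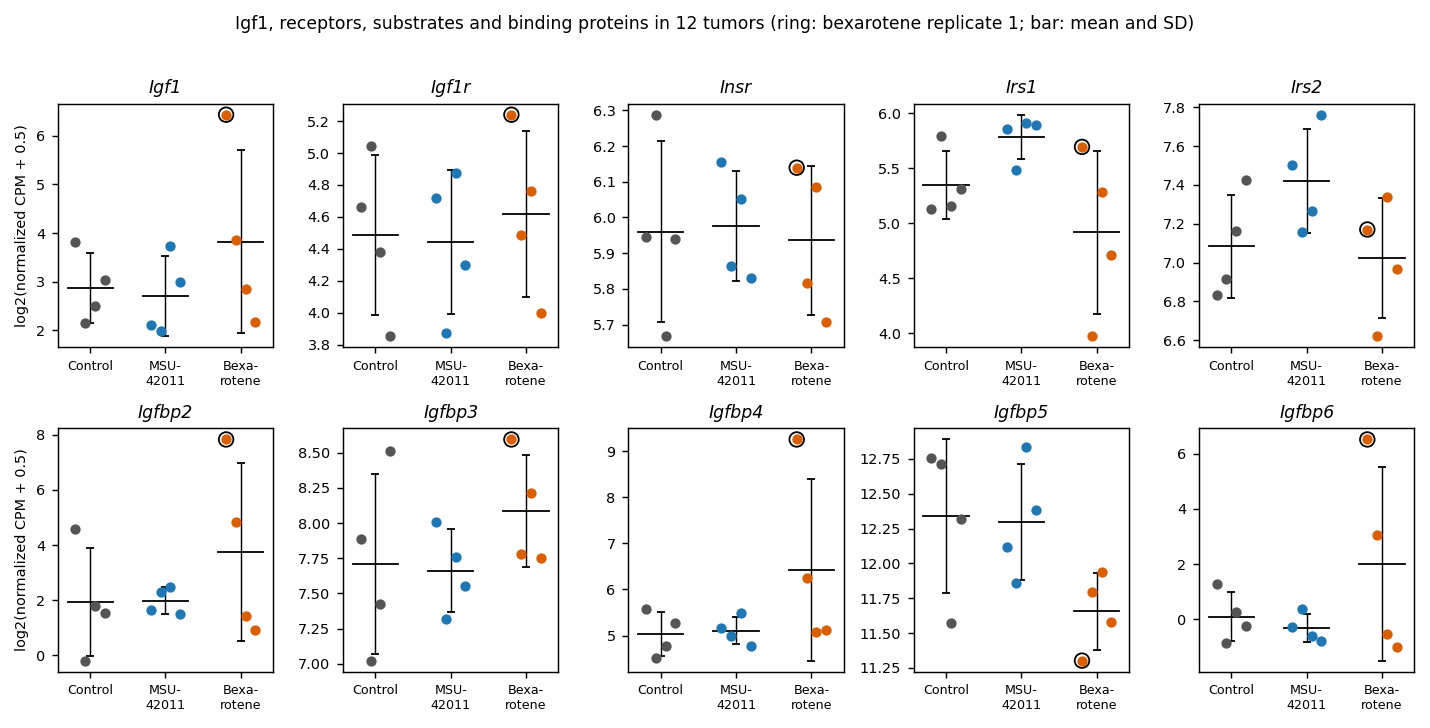
The level of each of the 10 genes in each tumor, as log2(normalized CPM + 0.5) on the vertical axis, by diet group; each point is 1 tumor, the long line is the group mean and the whiskers are 1 SD (n = 4), and the ring marks bexarotene replicate 1. The ringed tumor is the highest of the 12 for Igf1, Igf1r, Igfbp2, Igfbp3, Igfbp4 and Igfbp6, and the lowest for Igfbp5.

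Bexarotene replicate 1 held the highest level of 6 of the 10 genes and the lowest of 1, against 19.1% and 11.9% of all genes tested. The 6 were Igf1, Igf1r, Igfbp2, Igfbp3, Igfbp4 and Igfbp6, and the excess over the next highest tumor was small for Igf1r (1.15 times) and Igfbp3 (1.06 times) and large for the other 4 (6.14 to 11.7 times).

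Igf1, the ligand, was at 13.6, 3.93, 5.13 and 7.67 normalized CPM in control replicates 1 to 4. It was at 3.85, 3.45, 12.9 and 7.46 CPM in the MSU-42011 tumors and at 85.8, 14.0, 6.73 and 3.99 CPM in the bexarotene tumors. Bexarotene replicate 1 was 6.14 times the highest of the other 11 tumors, bexarotene replicate 2 was the next highest, and the other bexarotene tumors lay within the control range. The log2 fold change for bexarotene against control was 1.87 (SE 0.85, adjusted p = 0.771 by edgeR), and it was 0.13 (SE 0.55) without bexarotene replicate 1. A two-sided exact permutation test, which cannot go below 0.029 with 4 tumors in each group, gave p = 0.457, and p = 0.914 without that tumor. For MSU-42011 against control the log2 fold change was -0.13 (SE 0.83), with a 95% interval from -1.94 to 1.68, and without bexarotene replicate 1 in the shared estimate of spread the interval was -1.25 to 0.99. With all tumors the interval thus included a 2-fold difference of Igf1 in either direction. Without bexarotene replicate 1 it included a 2-fold fall, and its upper end was just short of a 2-fold rise.

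Other ligands were at or near the limit of detection. Igf2, the fetal growth factor of the family, had 2 counts over all 12 tumors, Ins1 had 1 and Ins2 had 0. The latter allows at most 3 counts over the series, for counting error only. Igf2 overlaps 3 other listed genes, such as Igf2os, so reads in the shared stretches could not be assigned with certainty.

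The receptors had a smaller spread over the 12 tumors than the ligand, with an SD on the log2 scale of 0.45 for Igf1r and 0.19 for Insr beside 1.24 for Igf1, and of 0.41 and 0.19 beside 0.72 without bexarotene replicate 1. Igf1r, the receptor of IGF-1, was at 24.9, 32.4, 20.4 and 14.0 CPM in control tumors, at 25.8, 14.1, 28.9 and 19.2 CPM in MSU-42011 tumors, and at 37.3, 21.9, 26.6 and 15.4 CPM in bexarotene tumors. The groups overlapped throughout, and each held a tumor near 15 CPM. The log2 fold change was -0.06 (SE 0.31) for MSU-42011 against control and 0.15 (SE 0.31) for bexarotene against control, the latter -0.10 (SE 0.30) without bexarotene replicate 1.

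Insr, the insulin receptor, had the smallest spread of the set. Its level was 61.1, 77.6, 50.4 and 60.9 CPM in control tumors, 70.8, 57.8, 65.9 and 56.4 CPM in MSU-42011 tumors and 70.0, 55.8, 67.4 and 51.7 CPM in bexarotene tumors. The 95% interval of the log2 fold change was -0.31 to 0.32 for MSU-42011 and -0.35 to 0.29 for bexarotene against control, the narrowest of the set, and -0.28 to 0.35 between the agonists. These intervals were -0.43 to 0.23 for bexarotene against control and -0.23 to 0.44 between the agonists without bexarotene replicate 1. Bexarotene replicate 1 ranked 3 of 12 for Insr.

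Irs1 had, with Igfbp5, the lowest permutation p of the set between the agonists. IRS-1 is an adaptor that is phosphorylated by both receptors and recruits PI3K. Irs1 was at 34.5, 54.9, 35.3 and 39.1 CPM in control tumors, at 57.4, 44.2, 59.6 and 58.9 CPM in MSU-42011 tumors, and at 51.3, 15.2, 38.4 and 25.7 CPM in bexarotene tumors. Of the MSU-42011 tumors 3 of 4 lay above every control and every bexarotene tumor, and 2 of the 4 bexarotene tumors lay below every control. MSU-42011 was higher than bexarotene by 0.75 on the log2 scale (SE 0.30), a ratio of 1.68, with an adjusted p of 0.997 by edgeR and p = 0.0571 in the exact permutation test. Without bexarotene replicate 1 the difference was 1.06 (SE 0.27), a ratio of 2.08, with an adjusted p of 0.939 by edgeR. The exact permutation p was then 0.029, unadjusted and the smallest that 4 against 3 tumors allow. The groups then did not overlap, which held in this direction for 1.77% of all genes tested without this tumor. The difference of each agonist from control was 0.43 (SE 0.30) for MSU-42011 and -0.33 (SE 0.30) for bexarotene, the latter -0.63 (SE 0.27) without bexarotene replicate 1, with both comparisons using the same controls.

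Irs2, the related adaptor, had the same order of group means as Irs1. It was at 113.7, 120.3, 142.6 and 171.3 CPM in control tumors, at 180.6, 142.0, 153.5 and 216.6 CPM in MSU-42011 tumors, and at 143.5, 98.0, 161.4 and 124.5 CPM in bexarotene tumors. The highest 2 MSU-42011 tumors lay above every other tumor, and bexarotene replicate 2 was the lowest of the 12 for both Irs1 and Irs2. MSU-42011 was higher than control by 0.34 (SE 0.18) and higher than bexarotene by 0.39 (SE 0.18) on the log2 scale, and the exact permutation p was 0.143 for both. The difference from bexarotene was 0.44 (SE 0.20) without bexarotene replicate 1. Bexarotene differed from control by -0.055 (SE 0.18), and by -0.098 (SE 0.20) without that tumor. Over the 12 tumors the Pearson correlation of Irs1 with Irs2 was 0.69, and it was 0.71 over the 11 without bexarotene replicate 1. This is a description over tumors of 3 diets.

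**Figure D2:**
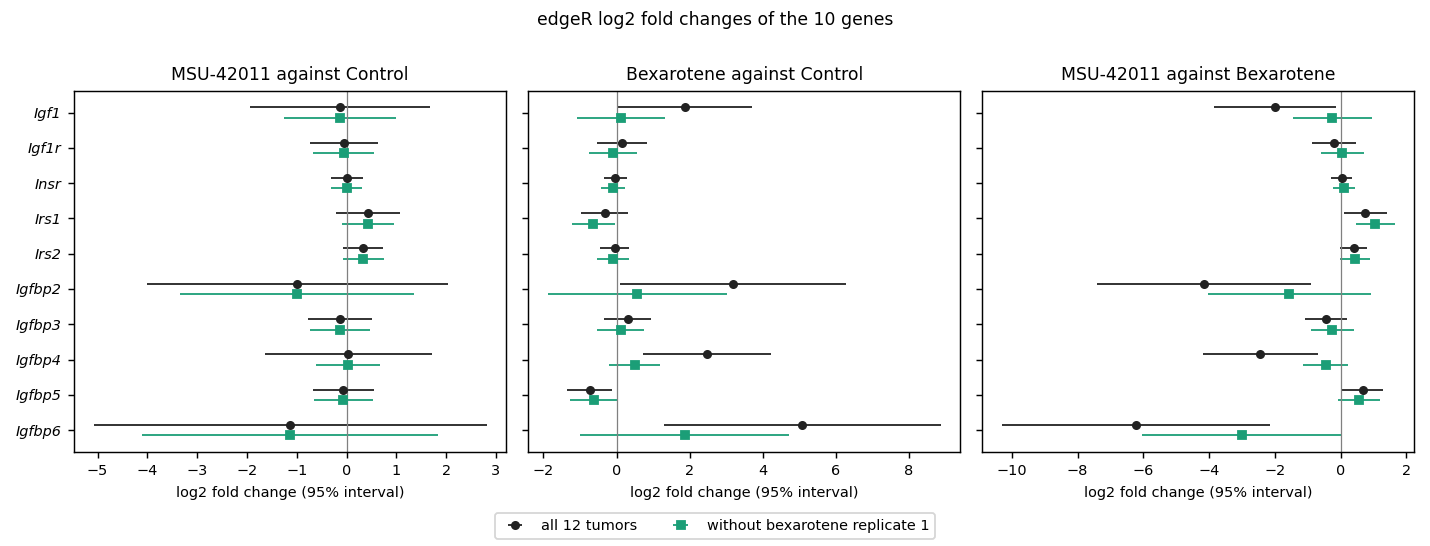
Log2 fold change of each gene in the 3 comparisons, from edgeR, with 95% intervals as bars; black circles use all 12 tumors and green squares leave out bexarotene replicate 1. Without this tumor the points of Igf1, Igfbp2, Igfbp4 and Igfbp6 move toward 0 in both comparisons with bexarotene, while the points of Irs1 move away from 0.

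The ratio of receptors and of substrates within a tumor does not depend on library size. Igf1r FPKM was 0.222 to 0.405 of Insr FPKM in control tumors, with a mean log2 ratio of -1.54 ± 0.42 (SD, n = 4), and the mean was -1.60 ± 0.35 with MSU-42011 and -1.38 ± 0.34 with bexarotene. Irs1 FPKM was 0.158 to 0.316 of Irs2 FPKM in control tumors, with a mean log2 ratio of -2.28 ± 0.45 (n = 4), against -2.18 ± 0.21 with MSU-42011 and -2.66 ± 0.50 with bexarotene. None of the 6 comparisons of these ratios passed the exact permutation test, with p from 0.143 to 0.743 and an adjusted p of 0.743 for each. The lowest p belonged to Irs1 to Irs2 between the agonists, where MSU-42011 was higher by 0.48 on the log2 scale. Without bexarotene replicate 1 that difference was 0.70 and its exact permutation p was 0.029, unadjusted and again the smallest possible.

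**Figure D3:**
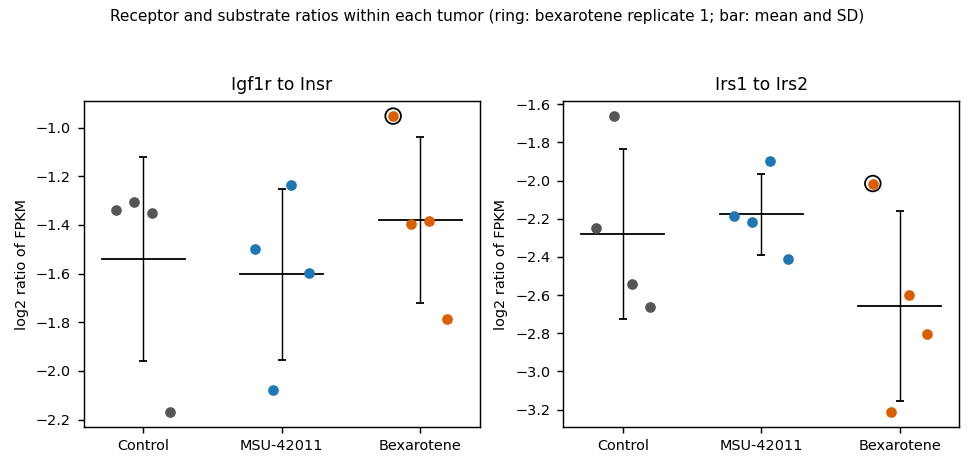
The log2 ratio of Igf1r to Insr FPKM (left) and of Irs1 to Irs2 FPKM (right) in each tumor by diet group; points are tumors, long lines are means, whiskers are 1 SD (n = 4) and the ring marks bexarotene replicate 1. The mean of Irs1 to Irs2 was -2.18 with MSU-42011 and -2.66 with bexarotene, and the groups overlap.

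Among the binding proteins, Igfbp5 made up most of the mRNA. IGFBP-5 is secreted by mammary epithelium, and its amount is known to rise when the gland regresses after lactation. Igfbp5 was at 6911, 6733, 3043 and 5109 CPM in control tumors, at 4445, 3724, 7303 and 5333 CPM in MSU-42011 tumors, and at 2526, 3563, 3932 and 3069 CPM in bexarotene tumors. All 4 bexarotene tumors lay below 3 of the 4 control tumors and 3 of the 4 MSU-42011 tumors, but the third control tumor and the second MSU-42011 tumor lay among them. Bexarotene was lower than control by a log2 fold change of -0.74 (SE 0.29, adjusted p = 0.762 by edgeR, exact permutation p = 0.114), which was -0.63 (SE 0.30) without bexarotene replicate 1. MSU-42011 was higher than bexarotene by 0.67 (SE 0.28), with an exact permutation p of 0.0571, and by 0.56 (SE 0.30) with an exact permutation p of 0.114 without that tumor. It differed from control by -0.07 (SE 0.28).

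Igfbp3, the carrier of most IGF in blood, was at 236, 129, 171 and 365 CPM in control tumors, at 257, 159, 217 and 187 CPM with MSU-42011, and at 386, 220, 297 and 215 CPM with bexarotene. The groups overlapped, and the control tumors alone spanned the range from 129 to 365 CPM. The log2 fold change was -0.14 (SE 0.30) for MSU-42011 and 0.31 (SE 0.30) for bexarotene against control. The latter was 0.11 (SE 0.30) without bexarotene replicate 1.

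Igfbp4, a binding protein that inhibits IGF action until the protease PAPP-A cleaves it, was at 47.5, 22.4, 27.0 and 38.3 CPM in control tumors and at 35.6, 31.5, 44.3 and 26.9 CPM with MSU-42011. With bexarotene it was at 609, 75.6, 33.0 and 34.2 CPM. Bexarotene replicates 1 and 2 lay above the other 10 tumors, and replicates 3 and 4 lay within the control range. The log2 fold change for bexarotene against control was 2.48 (SE 0.81, adjusted p = 0.762 by edgeR, exact permutation p = 0.200) with all tumors and 0.49 (SE 0.32) without replicate 1. With MSU-42011 it was 0.03 (SE 0.77), and the SE was 0.30 without bexarotene replicate 1 in the shared estimate of spread.

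Igfbp2, a binding protein with an integrin-binding motif, had the widest spread of the set without bexarotene replicate 1, with an SD of 1.48 on the log2 scale. It was at 23.2, 0.379, 2.99 and 2.41 CPM in control tumors, at 2.64, 4.48, 5.04 and 2.31 CPM with MSU-42011, and at 226, 28.3, 2.18 and 1.41 CPM with bexarotene. The first bexarotene tumor was 8.004 times the highest of the others, and the second bexarotene tumor and the first control tumor followed. The log2 fold change for bexarotene against control was 3.17 (SE 1.42, adjusted p = 0.770 by edgeR), and 0.57 (SE 1.12) without bexarotene replicate 1. The exact permutation p was 0.429. MSU-42011 differed from control by -0.99 (SE 1.39), and by -0.996 (SE 1.08) without bexarotene replicate 1 in the shared estimate of spread.

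Igfbp6, which prefers IGF-2, was near the detection limit in most tumors. Its raw counts were 32, 1, 13 and 8 in control tumors, 6, 13, 3 and 2 with MSU-42011, and 2470, 163, 4 and 0 with bexarotene. The count of 0 in bexarotene replicate 4 allows up to 3 counts, for counting error only. Bexarotene replicate 1 was at 91.1 CPM, 11.7 times the highest of the other 11, which was bexarotene replicate 2 at 7.77 CPM. The fitted log2 fold change for bexarotene against control was 5.09 (SE 1.74, adjusted p = 0.762 by edgeR, exact permutation p = 0.400), and 1.86 (SE 1.31) without replicate 1. MSU-42011 differed from control by -1.13 (SE 1.81), with a 95% interval from -5.08 to 2.81 at these low counts. Without bexarotene replicate 1 in the shared estimate of spread the interval was -4.11 to 1.84 (SE 1.37).

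At an unadjusted p under 0.05, 4 of the 10 genes were higher with bexarotene than with control (Igf1, Igfbp2, Igfbp4 and Igfbp6) and 1 was lower (Igfbp5), against 4.48% and 1.96% of all genes. Without bexarotene replicate 1, 0 were higher and 1 was lower (Irs1), against 1.60% and 1.75% of all genes. Between the agonists the same 4 genes were lower with MSU-42011, and Irs1 and Igfbp5 were higher, against 3.13% and 0.819% of all genes. Without bexarotene replicate 1, 0 genes were lower and only Irs1 was higher, against 1.47% and 1.59%. The log2 difference of MSU-42011 from bexarotene was -1.999 (SE 0.85) for Igf1, -4.17 (95% interval -7.43 to -0.91) for Igfbp2, -2.44 (SE 0.81) for Igfbp4 and -6.22 (SE 1.88) for Igfbp6, and without that tumor it was -0.25, -1.56, -0.46 and -3.00. For Igfbp3 it was -0.45 (SE 0.30) and for Igf1r -0.20 (SE 0.31), and without that tumor -0.25 and 0.05. Between MSU-42011 and control 0 of the 10 genes passed this level, against 1.99% of all genes. The median log2 fold change of the set from control was -0.06 with MSU-42011 and 0.23 with bexarotene, and that of MSU-42011 from bexarotene was -0.33, beside 0.0016, 0.030 and -0.024 over all genes tested. Leaving out bexarotene replicate 1 gave 0.0075 for bexarotene against control and -0.10 between the agonists, beside 0.0062 and -0.00011 over all genes.

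The make-up of the binding protein mRNA was compared as shares of the summed FPKM of Igfbp2 to Igfbp6. Igfbp5 held 87.3% ± 5.14 (SD, n = 4) of it in control tumors, 88.0% ± 2.79 (n = 4) with MSU-42011 and 68.4% ± 23.6 (n = 4) with bexarotene. In bexarotene replicate 1 the Igfbp5 share was 33.0%, with 34.6% for Igfbp4, 14.3% for Igfbp2, 12.6% for Igfbp3 and 5.51% for Igfbp6. In the other bexarotene tumors the Igfbp5 share was 77.3% to 81.6%, below the lowest control tumor at 82.4% and the lowest MSU-42011 tumor at 84.6%. With the listed gene lengths these bexarotene tumors were at 84.4%, 86.3% and 86.9%, and the lowest control and MSU-42011 tumors were at 87.0% and 89.0%. The shares are a description, and no test of them was made.

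**Figure D4:**
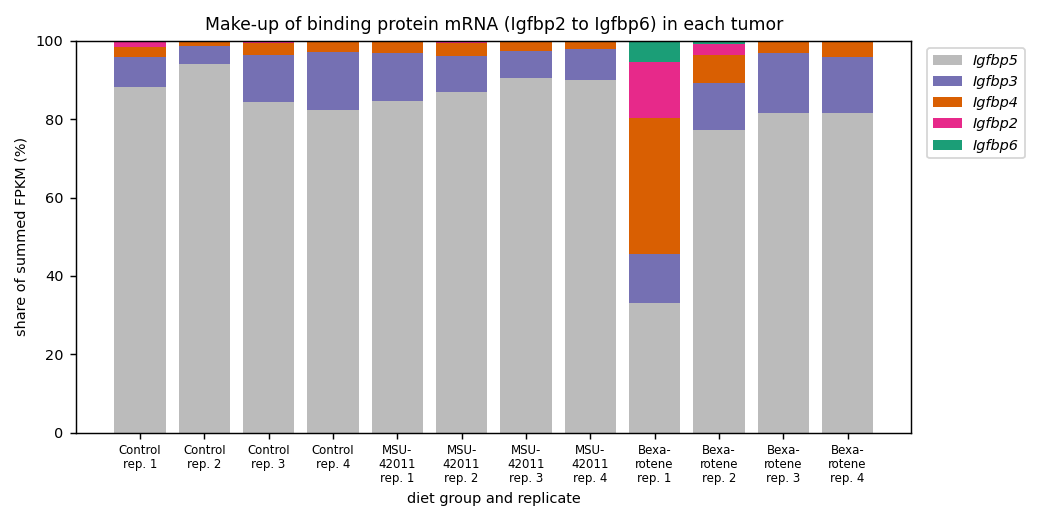
The share of each binding protein gene in the summed FPKM of Igfbp2 to Igfbp6, in percent, with 1 bar per tumor by diet group and replicate (rep.). Igfbp5 (grey) fills 77.3% to 94.1% of the bar in 11 tumors and 33.0% in bexarotene replicate 1, where Igfbp4 (orange) takes 34.6%.

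Set against the ligand, the summed binding protein FPKM was 220 to 695 times the Igf1 FPKM in control tumors and 239 to 521 times with MSU-42011. With bexarotene it was 34.0, 126, 274 and 360 times. The first 2 bexarotene tumors lay below every tumor of the other groups, and the last 2 lay within the control range. The summed level itself was 687 to 1554 FPKM with bexarotene and 707 to 1492 FPKM in control tumors, while Igf1 FPKM itself spanned 26.1-fold over the 12 tumors. These ratios are on the authors' lengths, and with the listed lengths the same bexarotene tumors were at 102, 498, 1116 and 1461 times.

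Fibroblast markers were highest in the same tumors as Igf1, Igfbp2, Igfbp4 and Igfbp6. All 15 fibroblast markers were higher with bexarotene than with control, where 55.3% of all genes were higher, and their median log2 fold change was 3.78. Without bexarotene replicate 1 it was 0.90 and 13 of 15 were higher, against 51.1% of all genes, and 0 of the 15 were called in either fit. The collagen genes Col1a1, Col1a2 and Col3a1, the most abundant of the list, were at 3561, 3114 and 3100 CPM in bexarotene replicate 1, and at most 280, 247 and 207 CPM in the other tumors. On the scale of mean log2 level of the list relative to control, bexarotene replicate 1 was at 5.56, bexarotene replicate 2 at 2.27, control replicate 1 at 1.14 and the others between -0.95 and 0.16. The same 3 tumors were the highest for Igf1, Igfbp2, Igfbp4 and Igfbp6, in the same order for each gene. The Pearson correlation of Igf1 with this list was 0.93 over 12 tumors and 0.75 over the 11 without bexarotene replicate 1, a description of tumors that share libraries and diets. For a list of endothelial markers it was also 0.93 and 0.75, and for macrophage markers 0.89 and 0.61. The likeness to Igf1 was therefore not particular to the fibroblast list. It was 0.81 and 0.62 for myoepithelial and 0.77 and 0.36 for skeletal muscle markers. For adipocyte markers the correlation was 0.67 and 0.10, and for luminal epithelium markers 0.0004 and 0.21. On the macrophage list bexarotene replicate 2 was at 0.08, below control replicate 1 at 0.43. On the endothelial list it was at 0.25, below MSU-42011 replicate 3 at 0.79.

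**Figure D5:**
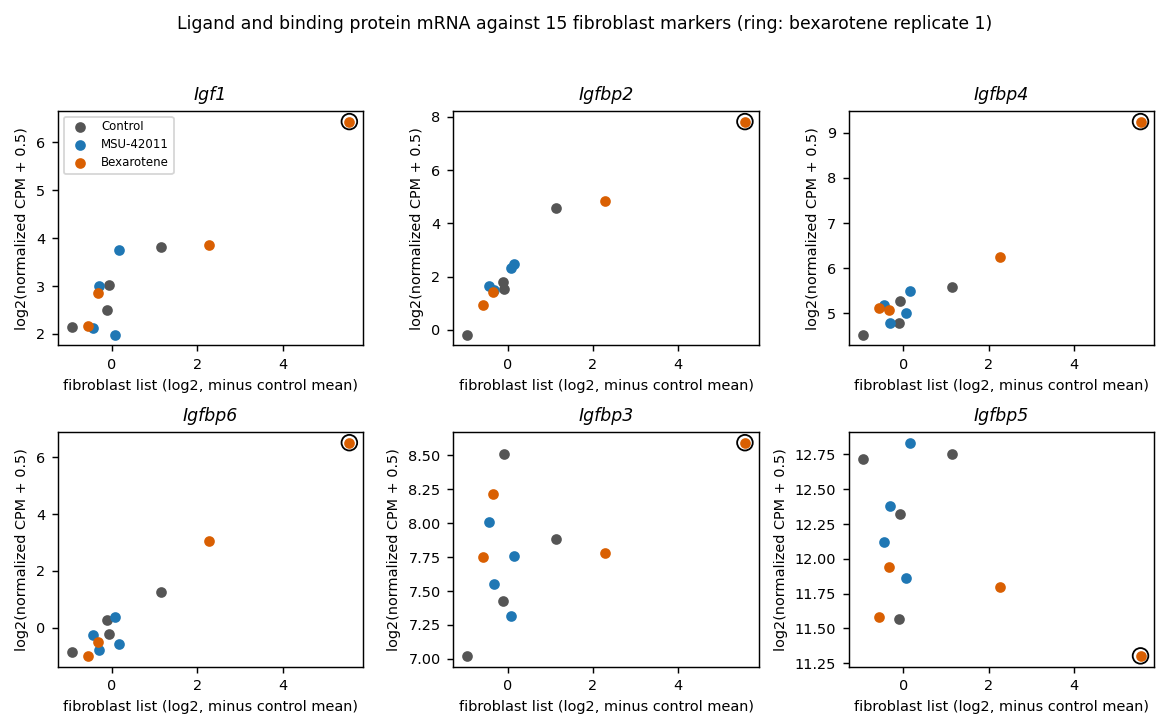
The level of Igf1 and of 5 binding protein genes (vertical axes, log2(normalized CPM + 0.5)) against the mean log2 level of 15 fibroblast markers relative to the control mean (horizontal axes); each point is 1 of 12 tumors, colored by diet, with a ring on bexarotene replicate 1. Igf1, Igfbp2, Igfbp4 and Igfbp6 are highest in the ringed tumor, at 5.56 on the horizontal axis, whereas Igfbp5 is lowest there.

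The other cell type lists were also highest in that tumor, except for the tumor epithelium. Summed CPM was 2430 for 12 macrophage markers in bexarotene replicate 1 against 297 to 865 in the others, and 552 against 106 to 263 for 10 endothelial markers. It was 120 against 33.7 to 54.3 for 10 adipocyte markers, of which the defining genes Adipoq, Plin1, Lep and Cidec were all below 4 CPM in every tumor, and Fabp4 was at 76.3 CPM. It was 267 against 26.6 to 117 for 8 myoepithelial markers, with the keratins Krt5 at 6.86 and Krt14 at 2.95 CPM, and 314 against 8.69 to 163 for 10 skeletal muscle markers. For 12 markers of the tumor's luminal epithelium it was 4129 against 6252 to 8211, with Epcam at 1353 CPM against at least 1754. On the mean log2 scale this list was at -0.23 in bexarotene replicate 1, within the range of the others from -0.47 to 0.29. Its marker Krt19 went the other way, at 28.2 CPM against at most 1.96. The part of these cells in the values of Igf1 and the binding proteins was not tested. Median log2 fold changes for bexarotene against control were 0.78 for macrophage, 0.72 for endothelial, 0.14 for adipocyte, -0.70 for myoepithelial, 0.65 for skeletal muscle and -0.19 for epithelial markers. They were -0.27, 0.09, -0.04, -1.22, -1.87 and -0.07 without bexarotene replicate 1. With MSU-42011 they were -0.14, 0.21, -0.19, -0.24, -1.40 and -0.17, and that of the fibroblast list was -0.02, and 0 genes of these lists were called in any comparison.

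Beyond the set, 7 of 20 further genes of the IGF axis had enough reads to be tested, and 0 of them were called. Igf2r, the receptor that clears IGF-2, differed between bexarotene and control by -0.04 on the log2 scale (SE 0.25), and by 0.04 without bexarotene replicate 1. Igfals, the subunit that stabilizes IGF complexes in blood, differed by -0.15 with all tumors and by 0.04 without that tumor. The stanniocalcins Stc1 and Stc2, which inhibit the PAPP-A protease, differed by 0.42 (SE 0.43) and 0.0053 (SE 0.61), and by -0.09 and -0.57 without it. Igfbp7, a vessel-associated relative, differed by 1.22 (SE 0.58, adjusted p = 0.794 by edgeR), and Htra1, a secreted protease that cleaves binding proteins, by 2.23 (SE 1.02, adjusted p = 0.773 by edgeR). These were 0.26 and -0.14 without bexarotene replicate 1. Igfbp7, with 40245 counts in all, overlaps Polr2b, which had 13806. Htra1, with 1973 counts, overlaps a listed gene with 1054, so part of the reads of both could not be assigned with certainty. Igf2bp3, an RNA-binding protein, differed by 0.78 (0.74 without that tumor) but had 124 counts in all and overlaps Malsu1, which had 5538. For MSU-42011 against control the 7 genes lay between -0.20 and 1.05 on the log2 scale, with Igf2bp3 at the upper end. Igfbp1 had 5 counts over all tumors. Pappa, the protease that cleaves IGFBP-4, was at 5.35 CPM in bexarotene replicate 1 and at most 0.238 CPM in the others, and was not tested.

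No gene upstream of Igf1 or downstream of the receptors was called in any comparison. Of 8 growth hormone and STAT5 genes, 5 were higher with MSU-42011 than with control and 3 with bexarotene, against 50.3% and 55.3% of all genes. Their median log2 fold changes were 0.0057 and -0.04, and 0 were called. With bexarotene the count was again 3, against 51.1% of all genes, and the median was -0.06 without replicate 1. Socs2, a STAT5 target, was at 818 ± 23.4 CPM in control tumors (SD, n = 4), with a log2 fold change of -0.02 for MSU-42011 and -0.08 for bexarotene (0.04 without replicate 1), while Stat5a differed by 0.28 and 0.03 (0.0052 without it) and Stat5b by 0.10 and -0.10. Stat5a overlaps Stat3, so part of its reads could not be assigned with certainty. Of 25 genes of the PI3K-AKT relay, 16 were higher with MSU-42011 than with control, 11 with bexarotene than with control and 20 with MSU-42011 than with bexarotene, against 50.3%, 55.3% and 45.1% of all genes, with medians of 0.08, -0.07 and 0.06, and 0 were called. Without bexarotene replicate 1, 9 were higher with bexarotene than with control and 16 with MSU-42011 than with bexarotene, against 51.1% and 50% of all genes, with medians of -0.05 and 0.10. Pik3r1, a regulatory subunit of PI3K, differed from control by -0.54 (SE 0.36) with MSU-42011 and by -0.61 (SE 0.36) with bexarotene. Its level was 605 ± 409 CPM (SD, n = 4) in control tumors, 416 ± 75.8 with MSU-42011 and 397 ± 40.0 with bexarotene. The highest control tumor was at 1182 CPM, and both comparisons used the same controls. Pik3r2 differed from control by -0.21 with MSU-42011 and -0.10 with bexarotene, and Akt1 by -0.13 and -0.16. Of 16 adaptors and brakes of the receptors, 8 were higher with MSU-42011 and 9 with bexarotene than with control, against 50.3% and 55.3% of all genes. The medians were 0.0049 and 0.02, and 0 were called. Without bexarotene replicate 1 the count with bexarotene was 4 of 16 in this list, against 51.1% of all genes, with a median of -0.05. Its most abundant genes Shc1, Crk and Rack1 differed by -0.07, 0.16 and -0.11 with MSU-42011 and by 0.03, -0.02 and -0.15 with bexarotene (-0.02, -0.13 and -0.10 without replicate 1).

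The genes most like Igf1 were named by the Pearson correlation of log2(normalized CPM + 0.5). Over 12 tumors they were Cpz, a carboxypeptidase (0.97), Fxyd1, a regulator of the sodium pump (0.97), Ncam1, an adhesion molecule (0.97), Jph2, a junctophilin (0.97), and Mamdc2 (0.97). The same 5 genes were the highest over the 11 tumors without bexarotene replicate 1, at 0.91, 0.91, 0.91, 0.90 and 0.89. All 5 were below 4 CPM in those 11 tumors. Over all 15504 genes, 248 had a correlation above 0.9 with Igf1 over 12 tumors and 4 over 11, so that most of these values rested on bexarotene replicate 1. Within the set the correlation with Igf1 was 0.93 for Igfbp4, 0.90 for Igfbp2 and 0.87 for Igfbp6 over 12 tumors, and 0.74, 0.75 and 0.55 over 11. For Igfbp5 it was -0.21 over 12 and 0.41 over 11, for Igfbp3 0.61 and 0.37, for Igf1r 0.54 and 0.25, and for Insr, Irs1 and Irs2 it lay between -0.14 and 0.21 over 12 and between -0.31 and -0.09 over 11. Among the binding protein genes it was 0.95 over 12 and 0.88 over 11 tumors for Igfbp2 with Igfbp6, and 0.91 and 0.86 for Igfbp2 with Igfbp4. These are descriptions over tumors of 3 diets, and low counts make those of Igfbp6 weak.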

How the data were processed

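RNA of 12 mammary tumors, 4 per diet group as the labels give them, was enriched for poly(A) from 1 ug of total RNA and sequenced. The authors deposited raw read counts per gene, and FPKM, which divide the count by the library total and by a length of the gene. Per the labels, the processing notes name STAR 2.6.1d, featureCounts 1.5.0-p3 and DESeq2, and neither the strand setting nor the genome build was given in the sources used here. Whether each tumor came from a separate mouse is stated only per group, so p-values measure only the spread between these samples, which may be technical in part. Counts were tested with edgeR 4.0.16 in R 4.3.3 (TMM, filterByExpr at defaults, quasi-likelihood F test, 1 mean per group, Benjamini-Hochberg over 15504 genes, threshold 0.05), and single genes also with exact permutation tests. Normalized CPM use TMM library sizes. DESeq2 1.42.0 and limma 3.58.1 on log2(FPKM + 1) served as alternatives, and the code was tested on simulated data. Intervals and floors cover counting or sampling error only. Levels across genes use FPKM, ratios add 0.01. All 10 genes, all tested genes of the IGF axis, the 3 most abundant genes of other lists and the 5 genes most like Igf1 were named. The genes and lists were chosen with earlier results of these data known. The authors' fold changes and p-values were not used. Total counts of 16583413 to 25925027 set the depth.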

Additional observations from a re-analysis of the deposited data

Results flagged for a closer look

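Of 36 sets of 4 tumors (the 10 genes and the 2 ratios in each diet group), 2 held a tumor that lay far from the other 3 by Dixon's criterion, which chance meets in about 1 of 20 sets. Irs1 in MSU-42011 replicate 2 was at 44.17 normalized CPM, below the other MSU-42011 tumors, with a gap of 0.873 of the group's range. The ratio of Igf1r to Insr FPKM in control replicate 4 was 0.222, below the other control tumors, with a gap of 0.947 of the range.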

How the results depend on the processing

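No gene of the set passed the adjusted threshold under any of the alternatives run, and the lowest adjusted p was 0.0884, for Igfbp6 between the agonists by DESeq2 without its Cook's distance filter. The direction of 18 of the 30 log2 fold changes held under all alternatives. DESeq2 called 5 genes for any difference, 1 for MSU-42011 and 6 for bexarotene against control and 25 between the agonists. Without the Cook's filter it called 11, 7, 7 and 41, and without bexarotene replicate 1, chosen after seeing the data, 3, 1, 1 and 3. Leaving out each tumor in turn gave 0 to 1 edgeR calls for any difference and for bexarotene against control, with the 1 call without MSU-42011 replicate 2, and 0 otherwise. Correlations of same-numbered tumors ranged from -0.39 to 0.38 and 5 of 12 exceeded 0.1. Differently numbered tumors were not set beside them, so these values cannot tell whether the replicate numbers pair the tumors. The replicate block gave 0 calls in every comparison. For MSU-42011 against control it turned Igf1 from -0.13 to 0.16 and Igfbp2 from -0.99 to 0.32.

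Limma on log2(FPKM + 1), with and without a filter, and on log2(FPKM + 0.1) reversed some values, and that of Igfbp2 was not small. For MSU-42011 against control it gave 0.014 and 0.017 for Igf1r, 0.010 and 0.011 for Igfbp3 and 0.021 and 0.021 for Igfbp5. With 0.1 added it gave 0.26 for Igfbp2 in that comparison, where edgeR gave -0.99 (SE 1.39). For bexarotene against control limma gave 0.017 and 0.017 for Insr. Over all genes the median of limma on log2(FPKM + 1) was 0.051 for MSU-42011 and 0.053 for bexarotene against control. Without the filter these medians were 0.014 and 0.020, and by edgeR they were 0.0016 and 0.030. DESeq2 without bexarotene replicate 1 gave -0.11 for Igf1r against control and 0.050 between the agonists. Leaving out 1 tumor at a time, the log2 fold change for MSU-42011 against control ran from -0.61 to 0.31 for Igf1, -0.23 to 0.16 for Igf1r, -0.085 to 0.12 for Insr, -1.40 to 0.90 for Igfbp2, -0.33 to 0.20 for Igfbp3, -0.12 to 0.24 for Igfbp4 and -0.28 to 0.068 for Igfbp5. For bexarotene against control it ran from -0.10 to 0.36 for Igf1r, -0.12 to 0.087 for Insr and -0.17 to 0.072 for Irs2. Between the agonists it ran from -0.37 to 0.045 for Igf1r and -0.033 to 0.11 for Insr. The ratio of Igf1r to Insr ran from -0.27 to 0.10 for MSU-42011 and from -0.048 to 0.30 for bexarotene against control, and that of Irs1 to Irs2 from -0.025 to 0.31 for MSU-42011 against control and from 0.30 to 0.70 between the agonists, where only the fit without bexarotene replicate 1 passed unadjusted. The cause of these reversals was not tested. Depth limits Igfbp6 most, with at most 32 counts in 10 of the 12 tumors.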
